A study of Mus musculus with 16 samples.

Results

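The 10 genes described here are Tnfsf14, Itgb2l, Ltb4r1, Slc2a3, Cnn2, Itgam, Cd177, Fcnb, Chil3 and Retnlg, genes of blood leukocytes that were measured in the livers of young mice. They were picked from 19361 genes tested as the blood cell genes, platelet genes aside, with the strongest differences between offspring of UV-Titan-exposed and control dams. That choice looked at the ratio and at the red channel alone, on each array and within slide. Those exposure differences therefore chose the genes and are given as a description, with no test. All 10 were found by name on the array (Chil3 under its older name Chi3l3), and each gene was read from its probe of highest average red signal. All 10 passed the filter on low signal, and their liver spots were well above background on all 16 arrays.

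The study addressed whether a pregnant dam's inhalation of UV-Titan, nano-sized titanium dioxide particles with a surface coating, alters hepatic gene expression in her offspring. Dams were time-mated C57BL/6BomTac mice without transgene or deletion named in the labels. The UV-Titan dams inhaled about 42 mg/m3 for 1 h a day on gestation days 8 to 18, and the control dams breathed filtered air in whole-body chambers on the same schedule. Female offspring numbered 3 in the control and 5 in the UV-Titan group, male offspring 4 in each, and every animal had its own two-colour array. The labels name offspring ages of postnatal day 2 and postnatal days 23 to 24, and do not say which age each liver had or which animals were littermates. The p-values measure the spread between these animals, some of which may share a dam.

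Leukocytes reach the liver in blood and also reside in its sinusoids, and before birth and for a short time after it the mouse liver itself makes blood cells. Tnfsf14 (LIGHT) is a ligand of the tumour necrosis factor family that binds the receptors HVEM (Tnfrsf14) and lymphotoxin beta receptor (Ltbr). Ltb4r1 (BLT1) is the high-affinity receptor for the chemoattractant leukotriene B4, and Itgam (CD11b) pairs with Itgb2 (CD18) to form the integrin Mac-1 of neutrophils and monocytes. Cd177 is a surface protein of neutrophils. Fcnb, a ficolin, Chil3 (Ym1), a chitinase-like lectin, and Retnlg, a resistin-like protein, are secreted by myeloid cells. Of the 10 genes, 6 thus encode surface proteins, 3 encode secreted proteins and Cnn2 encodes an actin-binding calponin of the cytoplasm, so the set is wider than surface and signalling genes.

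Sequence near the start of transcription is shown for 5 of the genes because PU.1 and C/EBP factors are known regulators of myeloid genes. All 5 hold a match to a motif named below, and windows without a match are not shown. RefSeq promoters of assembly GRCm38.p6 matched 9 of the 10 genes, and the bases shown are the 250 before the start, 5′ to 3′ on the strand of the gene. Capitals mark 3 motifs searched on both strands: the PU.1 core GAGGAA, the C/EBP motif TTGCNNAA and the Runx motif TGTGGT. Motif positions did not overlap one another.
Tnfsf14, chr17:57194182-57194431, minus strand: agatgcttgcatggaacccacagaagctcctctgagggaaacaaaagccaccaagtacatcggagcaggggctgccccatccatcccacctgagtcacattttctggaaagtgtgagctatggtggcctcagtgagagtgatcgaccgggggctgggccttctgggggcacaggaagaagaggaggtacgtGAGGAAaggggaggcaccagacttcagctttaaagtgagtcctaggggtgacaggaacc
Itgb2l, chr16:96443615-96443864, minus strand: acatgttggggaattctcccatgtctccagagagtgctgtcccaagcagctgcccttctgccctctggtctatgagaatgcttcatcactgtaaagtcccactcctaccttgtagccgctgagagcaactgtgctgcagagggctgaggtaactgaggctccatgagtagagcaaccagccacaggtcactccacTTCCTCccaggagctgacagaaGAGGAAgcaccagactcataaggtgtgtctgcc
Ltb4r1, chr14:55765712-55765961, plus strand: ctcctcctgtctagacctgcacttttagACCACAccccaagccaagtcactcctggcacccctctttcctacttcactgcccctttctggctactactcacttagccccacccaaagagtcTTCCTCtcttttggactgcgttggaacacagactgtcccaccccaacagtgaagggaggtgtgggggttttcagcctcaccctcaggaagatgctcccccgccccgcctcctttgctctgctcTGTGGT
Itgam, chr7:128062390-128062639, plus strand: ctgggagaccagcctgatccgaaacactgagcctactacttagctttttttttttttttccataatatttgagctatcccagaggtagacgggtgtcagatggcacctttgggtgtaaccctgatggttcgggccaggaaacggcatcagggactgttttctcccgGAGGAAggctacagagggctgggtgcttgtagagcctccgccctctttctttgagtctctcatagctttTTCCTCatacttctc
Fcnb, chr2:28084879-28085128, minus strand: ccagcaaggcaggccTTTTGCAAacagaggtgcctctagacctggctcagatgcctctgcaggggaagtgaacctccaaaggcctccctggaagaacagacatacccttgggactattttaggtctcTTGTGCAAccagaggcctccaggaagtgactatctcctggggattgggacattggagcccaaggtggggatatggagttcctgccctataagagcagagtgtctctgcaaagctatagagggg
The PU.1 core was present in 5 of the 9 promoters (Tnfsf14, Itgb2l, Ltb4r1, Itgam and Cd177), against 23.3% of 32851 mouse promoters of the same length. The C/EBP motif was present in 2 (Fcnb and Retnlg), against 9.6%, and the Runx motif in 1 (Ltb4r1), against 14.0%. Itgb2l and Itgam each held 2 PU.1 cores, Fcnb held 2 C/EBP motifs and Ltb4r1 held 2 Runx motifs. The Chil3 and Cnn2 windows held none of these letters. A match is a description of the letters and not a binding site.

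The sequences of 3 probes are shown because they bear on which transcript was measured. The array files, in build mm7, map the 60 bases of the Cd177 probe over 4711 bases of chromosome 7 and those of the Fcnb probe over 1484 bases of chromosome 2, both on the minus strand. A span longer than the probe is what a probe across an exon junction has, and such a probe reads spliced RNA. The Chil4 probe lies at chr3:106022134-106022413 and its accession field also lists a Chil3 transcript, so signals of these close paralogs may be mixed.
Cd177 probe: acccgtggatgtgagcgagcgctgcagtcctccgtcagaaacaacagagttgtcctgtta
Fcnb probe: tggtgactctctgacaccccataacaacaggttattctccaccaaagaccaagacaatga
Chil4 probe: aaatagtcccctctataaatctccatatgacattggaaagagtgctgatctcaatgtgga
The Chil3 probe itself lies at chr3:105965855-105965914, the Tnfsf14 probe at chr17:55400391-55400450 and the Itgam probe at chr7:124214519-124214578, all in mm7. No gene annotation of mm7 was used, so exon and UTR positions are not given.

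Facts of the whole series that touch these genes were as follows. Liver was in the red channel, since the red-to-green log2 ratio of 12 hepatocyte genes had a median of 4.51 to 5.55 on the 16 arrays and Xist and Ddx3y matched the labelled sex on all 16. Liver spots well above background made up 57.7% to 67.1% of an array, and arrays correlated with one another at r = 0.969 to 0.992 across genes, which are not independent replicates. Female control 35 and female control 25 had the lowest array weights (0.42 and 0.59). Male controls 31 and 33 held exocrine pancreas transcripts (mean score 1.96 and 1.18, against 0 as the mean of all arrays) and male UV-Titan 5 held skeletal muscle transcripts (2.94).

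In female livers the ratio of liver to reference RNA was higher after maternal UV-Titan for all 10 genes, by 0.19 (Cnn2) to 0.74 (Chil3) on the log2 scale, with a median of 0.51. The median over all 19361 genes was 0.02, 58.5% of genes were higher and 9.29% had a difference at least as large as that of Cnn2. In male livers all 10 were also higher, by 0.03 (Cd177) to 0.31 (Cnn2), with a median of 0.20, where the median of all genes was 0.02 and 56.6% were higher. The male median was 0.13 without male control 41. Without the 3 arrays with pancreas or muscle transcripts it was 0.16, with 9 of 10 higher (Cd177 -0.0056), Slc2a3 at 0.16 and Retnlg at 0.06. Every UV-Titan female lay above every control female for 6 of the 10 genes (Tnfsf14, Itgb2l, Ltb4r1, Slc2a3, Cnn2 and Itgam), against 3.17% of all genes, and every UV-Titan male above every control male for 2 (Itgb2l and Cnn2), against 1.92%. Because these contrasts chose the genes, nothing is read from those shares. Across all genes, limma called 0 at an adjusted p of 0.05 in females (0% of genes, smallest adjusted p 0.0847, 1294 genes or 6.68% at an unadjusted p under 0.05) and 0 in males (0%, smallest adjusted p 0.952, 957 genes or 4.94%). In females limma called 1 gene, Ltb4r1, with slide or with scan day as a block (difference 0.50 and 0.49). With array weights it called 6 genes, Itgb2l among them. The same contrast chose Ltb4r1 and Itgb2l, so nothing is read from their being called. In whole liver, more cells of a type and more RNA per cell cannot be told apart.

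**Figure D1:**
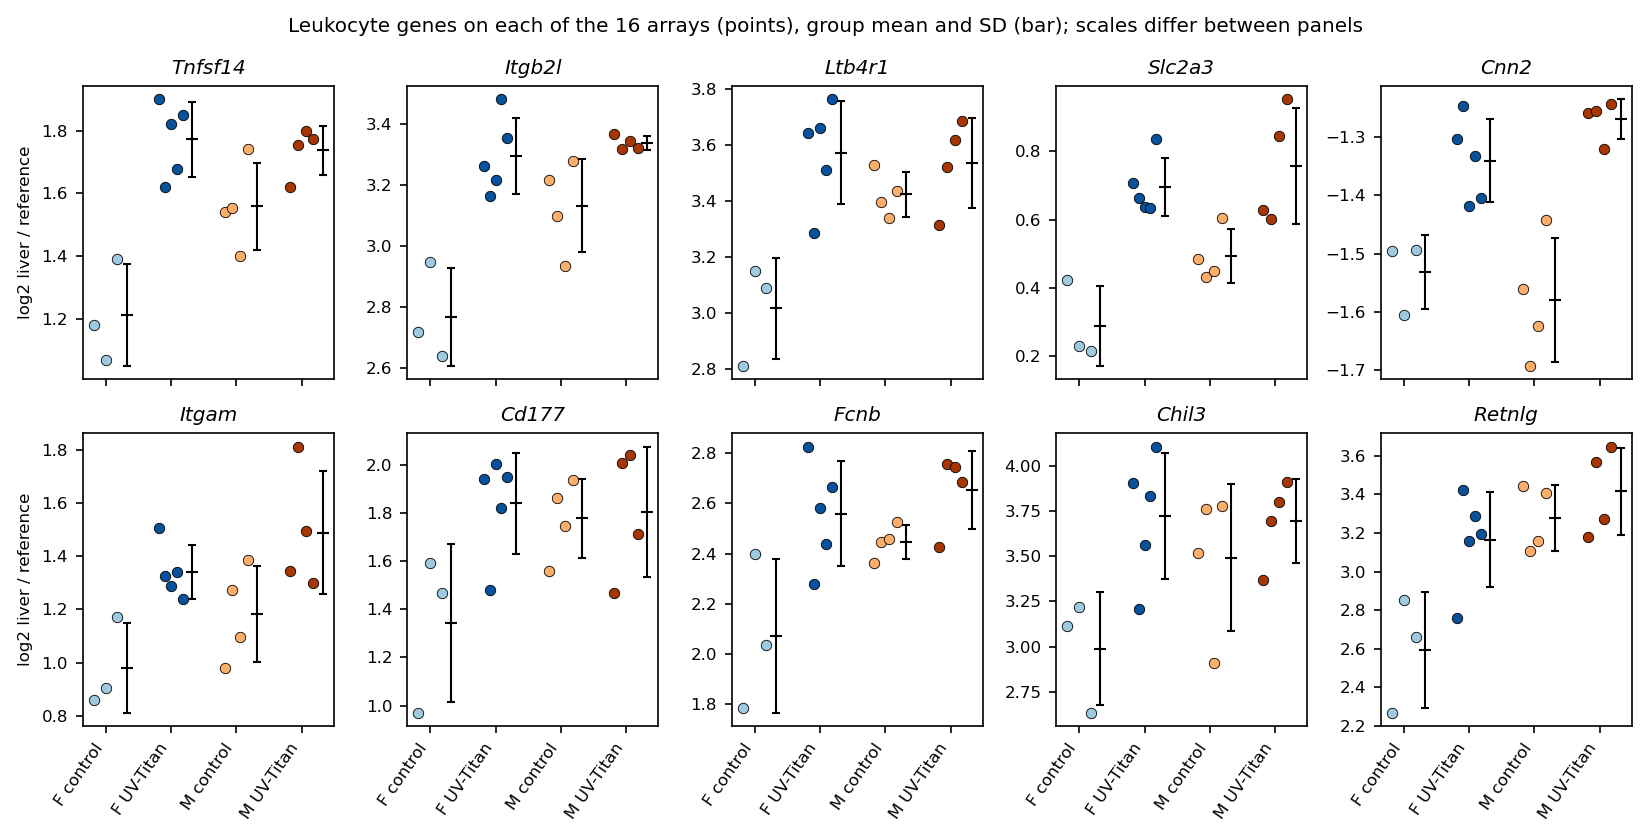
Each panel plots one gene, with log2 liver over reference on the vertical axis (scales differ), 1 point for each array and a bar for the group mean and SD (female control n = 3, female UV-Titan n = 5, male control n = 4, male UV-Titan n = 4). Female controls are the lowest group for 9 of the 10 genes, and for Tnfsf14 the female controls, 1.07 to 1.39, lie below the female UV-Titan arrays, 1.62 to 1.90.

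Tnfsf14, the ligand that leads the set, read 1.18, 1.07 and 1.39 in female controls 25, 35 and 40, and 1.82, 1.85, 1.90, 1.62 and 1.68 in female UV-Titan 2, 8, 10, 16 and 21 (log2 ratio). The male controls 31, 33, 41 and 43 read 1.54, 1.55, 1.40 and 1.74, and male UV-Titan 3, 4, 5 and 17 read 1.76, 1.80, 1.77 and 1.62. The 3 female controls were the lowest of all 16 arrays, and the other 3 groups overlapped. The female difference was 0.56 (SE 0.09), a 1.47-fold higher ratio, and the male difference was 0.18 (SE 0.09), or 1.13-fold. In the liver channel alone, after quantile scaling between arrays, the differences were 0.54 (SE 0.13) in females and 0.06 (SE 0.13) in males.

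Ltb4r1, the leukotriene B4 receptor, was lowest in the female controls too, which read 2.81, 3.15 and 3.09 in the same order. The female UV-Titan arrays read 3.66, 3.76, 3.64, 3.29 and 3.51, so that the groups did not overlap, with a difference of 0.56 (SE 0.11). Male controls read 3.53, 3.39, 3.34 and 3.43 and male UV-Titan 3.52, 3.62, 3.69 and 3.31. The male groups overlapped, with a difference of 0.11 (SE 0.11), which was 0.06 without male UV-Titan 5 and 0.18 without male UV-Titan 17. By liver channel alone the female difference was 0.55 (SE 0.14), as large as by ratio.

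Itgb2l, a beta integrin subunit close to Itgb2, read 2.72, 2.95 and 2.64 in female controls and 3.21, 3.35, 3.26, 3.16 and 3.48 in female UV-Titan. In males the controls read 3.22, 3.10, 2.93 and 3.28, while the 4 UV-Titan arrays lay within 3.32 to 3.37. Neither sex showed overlap by ratio, and the difference was 0.53 (SE 0.09) in females and 0.20 (SE 0.09) in males. In the liver channel the values were 0.36 (SE 0.13) and 0.30 (SE 0.12), and the male groups overlapped there. The reference channel of Itgb2l differed by 0.16 (SE 0.08) in males. The male sign was not stable: it was -0.19 by the scanner's processed signals, where the reference spot was well above background on 13 of 16 arrays.

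Itgam, the alpha chain of Mac-1, read 0.86, 0.91 and 1.17 in female controls and 1.29, 1.24, 1.51, 1.32 and 1.34 in female UV-Titan, without overlap. Male controls read 0.98, 1.27, 1.10 and 1.39 and male UV-Titan 1.81, 1.50, 1.30 and 1.35. The difference was 0.36 (SE 0.12) in females and 0.30 (SE 0.11) in males, where the groups overlapped and the value was 0.20 without male UV-Titan 3. A second Itgam probe, which followed the first with r = 0.63 over the 16 arrays, gave 0.34 in females and 0.05 in males, so the 2 probes differ over males. Without female controls 25 and 35 the female difference was 0.17 (SE 0.17), and in the authors' deposited log2 table it was 0.21. The Itgam reference spot was well above background on 5 of 16 arrays.

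Cd177, a neutrophil surface protein, read 0.97, 1.59 and 1.47 in female controls and 2.00, 1.95, 1.94, 1.48 and 1.82 in female UV-Titan. Male controls read 1.56, 1.86, 1.75 and 1.94 and male UV-Titan 2.01, 2.04, 1.71 and 1.47. Groups overlapped in both sexes, with 1 female UV-Titan array (16) inside the control range. The difference was 0.50 (SE 0.16) in females, and 0.31 without female control 25, the lowest array. In males it was 0.03 (SE 0.15), with either sign under the other settings (8 of 30 below 0). By the scanner's processed signals the female difference was 0.79. The Cd177 reference spot was well above background on 6 of 16 arrays.

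Slc2a3 (GLUT3), the high-affinity glucose transporter of leukocytes, platelets and neurons, read 0.42, 0.23 and 0.21 in female controls and 0.64, 0.84, 0.71, 0.66 and 0.63 in female UV-Titan. Male controls read 0.49, 0.43, 0.45 and 0.61 and male UV-Titan 0.60, 0.85, 0.95 and 0.63. The female groups did not overlap and the male groups overlapped, the highest control at 0.61 and the lowest UV-Titan array at 0.60. The difference was 0.41 (SE 0.09) in females and 0.26 (SE 0.08) in males. The other Slc2a3 probes on the array, 2 in number, were above background on 0 of 16 arrays.

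Cnn2, a calponin of leukocytes and smooth muscle that is also found in other cells, was the one gene of the set below the reference RNA on every array. It read -1.50, -1.61 and -1.49 in female controls and -1.42, -1.40, -1.30, -1.25 and -1.33 in female UV-Titan. Male controls read -1.56, -1.69, -1.62 and -1.44 and male UV-Titan -1.26, -1.32, -1.24 and -1.26. Neither sex overlapped by ratio, and Cnn2 was the only one of the 10 whose difference was larger in males, 0.31 (SE 0.06), than in females, 0.19 (SE 0.06). The authors' deposited table gave 0.10 in females. In the liver channel alone the differences were 0.16 (SE 0.10) and 0.29 (SE 0.10) and the groups overlapped in both sexes.

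Fcnb, a secreted lectin of myeloid cells, read 1.78, 2.40 and 2.03 in female controls and 2.58, 2.67, 2.83, 2.28 and 2.44 in female UV-Titan. Male controls read 2.36, 2.45, 2.46 and 2.52 and male UV-Titan 2.76, 2.75, 2.69 and 2.43. In each sex 1 UV-Titan array (female 16, male 17) fell inside the control range and the others lay above it. The difference was 0.49 (SE 0.13) in females and 0.21 (SE 0.13) in males.

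Chil3, a chitinase-like lectin of neutrophils and alternatively activated macrophages, had the largest difference of the 10 in females by ratio. Female controls read 3.11, 3.22 and 2.63 and female UV-Titan 3.56, 4.11, 3.90, 3.21 and 3.84. Male controls read 3.52, 3.76, 2.91 and 3.78 and male UV-Titan 3.70, 3.80, 3.92 and 3.37. Chil3 also had the largest spread of the 10 in female UV-Titan and in male controls (SD 0.35, n = 5, and 0.41, n = 4), and groups overlapped in both sexes. The difference was 0.74 (SE 0.21) in females and 0.20 (SE 0.21) in males, the latter 0.01 without male control 41, 0.13 without male UV-Titan 5 and 0.31 without male UV-Titan 17. The reference channel of this probe differed by -0.30 (SE 0.16) in UV-Titan females, and the liver channel alone gave 0.40 (SE 0.19).

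Retnlg, a resistin-like protein of granulocytes and marrow, read 2.27, 2.85 and 2.66 in female controls and 3.16, 3.19, 2.76, 3.42 and 3.29 in female UV-Titan. Male controls read 3.44, 3.10, 3.16 and 3.41 and male UV-Titan 3.57, 3.27, 3.65 and 3.18. Female UV-Titan 10 was inside the control range. The male groups overlapped, with male UV-Titan 3 and 5 above every control. The difference was 0.57 (SE 0.15) in females and 0.14 (SE 0.15) in males. The male value was 0.06 without male UV-Titan 5 and 0.22 without male UV-Titan 17. It was -0.37 by the scanner's processed signals, where the reference spot was well above background on 7 of 16 arrays.

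Read by channel, the differences of the 10 genes lay by median mostly in the liver signal. Single genes departed from this, such as Tnfsf14 in males, at 0.06 by liver and -0.08 by reference channel. Chil3 in females stood at 0.40 and -0.30, and Itgb2l in males at 0.30 and 0.16. The median liver channel difference was 0.38 in females and 0.17 in males, against medians over all genes of 0.00 in both, and all 10 were higher in both sexes, where 49.7% and 50.5% of all genes were. The median reference channel difference was -0.01 in females and 0.00 in males. By liver channel alone, 4 of the 10 had no overlap in females (Tnfsf14, Itgb2l, Ltb4r1 and Slc2a3), against 1.07% of all genes. In males 0 of 10 were without overlap, against 0.909%. The choice of genes used this channel too, so nothing is read from these shares.

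**Figure D2:**
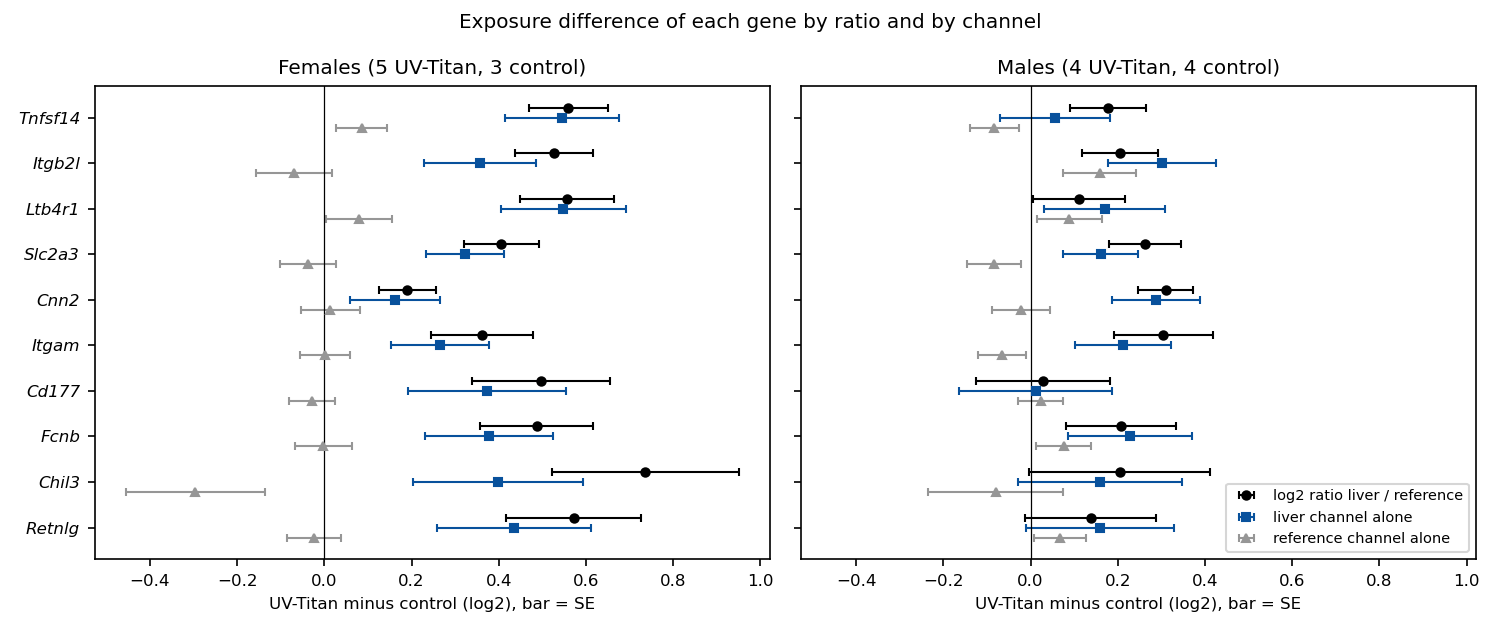
The horizontal axis gives UV-Titan minus control on the log2 scale with its SE, for females on the left and males on the right, by ratio (circles), liver channel alone (squares) and reference channel alone (triangles). The reference channel lies at -0.30 for Chil3 in females and between -0.08 and 0.16 otherwise, highest for Itgb2l in males, and the female circles lie to the right of the male ones for 9 of the 10 genes.

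The arrays lay on 5 slides, and comparing 1 UV-Titan with 1 control array of the same slide took slide and scan day out of the difference. Among females all 10 genes were higher on slide 1 (median 0.36), slide 3 (median 0.50) and slide 5 (median 0.46), where the medians of all genes were -0.01, 0.02 and 0.06. Among males all 10 were higher on slide 1 (median 0.35) and slide 2 (median 0.27), and 8 of 10 on slide 4 (median 0.08), with all genes at 0.01 on each. By liver channel 9, 10 and 9 were higher on the female slides and 10, 10 and 7 on the male ones. Values within slide were part of the choice of genes, so these counts are a description. The 2 lower on slide 4 were Slc2a3 (-0.00) and Chil3 (-0.08). Chil3 ranged most within females, from 0.10 on slide 5 to 1.27 on slide 3, followed by Retnlg, from 0.10 on slide 3 to 1.16 on slide 5.

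**Figure D3:**
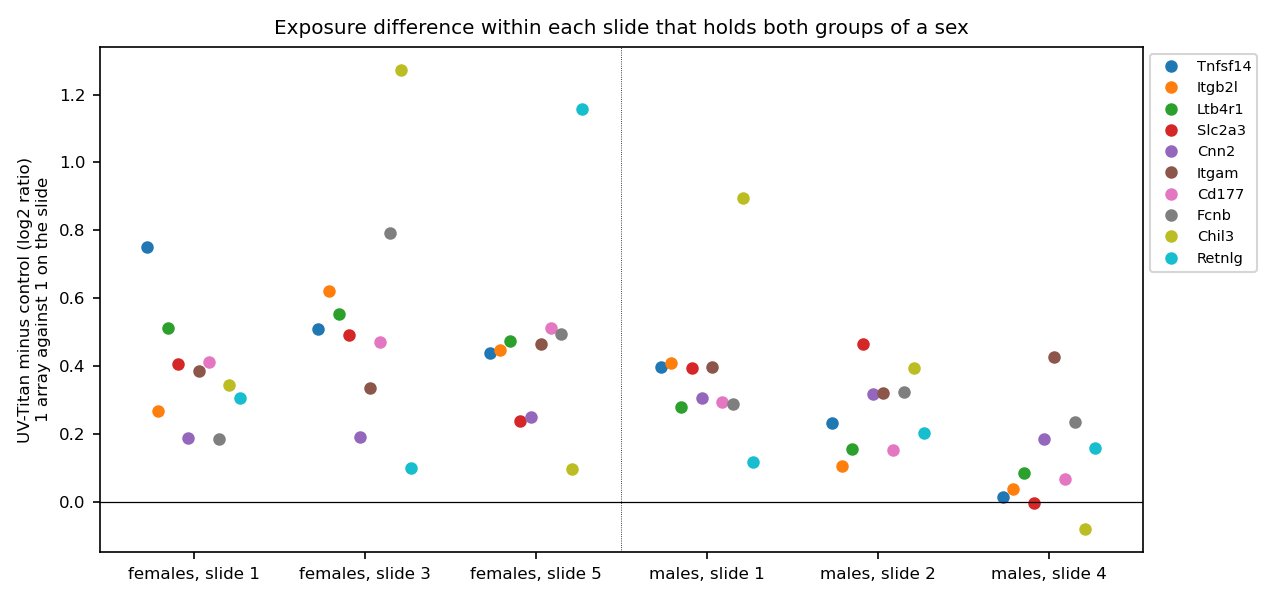
Each point is one gene, with the log2 ratio of the UV-Titan array minus that of the control array on the same slide, for the 3 slides that hold both female groups and the 3 that hold both male groups. Points lie above 0 everywhere except for Slc2a3 and Chil3 on slide 4, where the median was 0.08.

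Slide 5, which like slides 1 and 2 was scanned alone on its day, held low arrays of 3 groups. Female control 25, female UV-Titan 16 and male UV-Titan 17, all on slide 5, were the lowest of their group for 5, 6 and 6 of the 10 genes. Ltb4r1, Cd177 and Fcnb were lowest on slide 5 in all 3 groups. By liver channel alone the numbers were 2, 7 and 7. The share of all genes lowest on these arrays was not computed, so nothing about the 10 genes is read from these counts. On the same arrays the median log2 ratio of hepatocyte genes was 4.55, 4.97 and 4.51, where the 16 arrays ran from 4.51 to 5.55. On slide 5 the liver channel differences of the female pair were 0.00 for Itgb2l, 0.01 for Fcnb and -0.03 for Cd177, against 0.45, 0.50 and 0.51 by ratio.

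The interaction, female minus male exposure difference, was positive for 9 of the 10 genes, from 0.06 (SE 0.16) for Itgam to 0.53 (SE 0.30) for Chil3, with 0.38 (SE 0.13) for Tnfsf14 and 0.45 (SE 0.15) for Ltb4r1. Cnn2 stood at -0.12 (SE 0.09). The interaction holds the contrast that chose the genes, so these are descriptions. Its median over all genes was 0.01, and the share of all genes with a positive value was not computed. Across all genes limma called 0 for the interaction (0%, smallest adjusted p 0.981, 825 or 4.26% at an unadjusted p under 0.05).

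The difference between the sexes, averaged over control and UV-Titan, was not itself used in the choice and was tested. This contrast shares the female controls with the one that chose the genes, so it is not independent of the choice. The counts of the 10 genes given here are therefore a description. No gene of the 10 passed in limma, where 9 of 19361 genes (0.0465%) did and 7 of the 10 had an unadjusted p under 0.05, as did 4.30% of all genes. All 10 had a higher mean ratio in males, where 48.6% of all genes did, with a median of 0.19, and 9 did by liver channel alone, where 47.3% of all genes did. Retnlg had the largest value, 0.47 (SE 0.11) higher in males, with an adjusted p of 0.444, and Cnn2 the smallest, 0.01 (SE 0.05), with an adjusted p of 0.999. The other 8, from 0.13 (SE 0.06) for Slc2a3 to 0.24 (SE 0.15) for Chil3, each had an adjusted p of 0.981. Without the 3 arrays with pancreas or muscle transcripts 7 genes passed and Chil3 was 0.13, and without female control 25 Cd177 was 0.11.

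Among controls the mean was higher in males for 9 of the 10 genes, with Cnn2 at -0.05. Male controls were higher than female controls by 0.35 for Tnfsf14, 0.41 for Ltb4r1, 0.50 for Chil3 and 0.68 for Retnlg. Every male control lay above every female control for 4 genes (Tnfsf14, Ltb4r1, Slc2a3 and Retnlg), while the other 6 overlapped. The shares of all genes for these counts among controls were not computed. The female controls also took part in the choice of genes, so nothing is read from the counts. In the UV-Titan groups the male-minus-female differences were -0.04 for Tnfsf14, -0.04 for Ltb4r1, -0.03 for Chil3, 0.15 for Itgam and 0.25 for Retnlg. Setting these beside each other is the interaction again, which holds the contrast that chose the genes. The sex contrast shares its arrays with the exposure contrasts, and from the group sizes alone its estimate correlates with the female one by 0.18, so it is not independent of the choice of genes.

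Values for the receptors of Tnfsf14 were small. Tnfrsf14 was 0.12 (SE 0.14) higher in UV-Titan females (adjusted p = 0.929; 0.03 to 0.23 with 1 array left out, lowest without female UV-Titan 16 and highest without female control 35) and Ltbr 0.03 (SE 0.09) higher (adjusted p = 0.983), each with a sign that turned under other settings. Of the 15 tested genes of the LIGHT and lymphotoxin pathway, 11 were higher and 4 lower in females with a median of 0.03. None passed in limma in either sex, with 0 in females and 2 in males at an unadjusted p under 0.05.

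Of 12 tested leukotriene pathway genes, 9 were higher in females, with a median of 0.12, and none passed in limma (3 at an unadjusted p under 0.05). Alox5, the lipoxygenase that starts leukotriene synthesis, was 0.34 (SE 0.11) higher (adjusted p = 0.656; 0.52 without female control 35) and its activating protein Alox5ap 0.30 (SE 0.10) higher (adjusted p = 0.650). Lta4h, the hydrolase that makes leukotriene B4, stood at -0.04 (SE 0.10), adjusted p = 0.976.

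Of 14 tested genes of leukocyte integrins and adhesion, 13 were higher in each sex, with medians of 0.13 in females and 0.12 in males, and 0 passed in limma in either (3 and 6 at an unadjusted p under 0.05). Itgb2, the partner chain of Itgam, was 0.14 (SE 0.06) higher in females (adjusted p = 0.695) and 0.17 (SE 0.05) higher in males (adjusted p = 0.952). Selplg, the selectin ligand PSGL-1, was 0.29 (SE 0.08) higher in females (adjusted p = 0.481) and 0.23 (SE 0.07) in males (adjusted p = 0.952), and neither gene overlapped between groups in either sex (3.17% of all genes in females, 1.92% in males).

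Other glucose transporter genes did not pass the test either. Slc2a1 stood at -0.03 (SE 0.13) in females (adjusted p = 0.991) and Slc2a2, the transporter of hepatocytes, at 0.01 (SE 0.12) (adjusted p = 0.997), and by liver channel they stood at -0.21 and -0.15. Slc2a5, a fructose transporter, stood at -0.22 (SE 0.18) and Slc2a10 at -0.17 (SE 0.10) in females (adjusted p = 0.878 and 0.811), while Hk3, the hexokinase of myeloid cells, was 0.31 (SE 0.10) higher (adjusted p = 0.656). Of 18 genes of glucose transport and glycolysis, 9 were higher in females (median 0.00) and 15 in males (median 0.12), and none passed in limma in either sex (1 and 3 at an unadjusted p under 0.05).

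Of 14 calponin and leukocyte actin genes, 11 were higher in females (median 0.12) and 13 in males (median 0.15), and none passed in limma (6 and 5 at an unadjusted p under 0.05). Coro1a was 0.23 (SE 0.08) higher in females (adjusted p = 0.672). Rac2, a GTPase of blood cells, was 0.15 (SE 0.05) higher in each sex (adjusted p = 0.690 and 0.952), and Lcp1, a leukocyte plastin, 0.17 (SE 0.07) in females and 0.22 (SE 0.07) in males (adjusted p = 0.696 and 0.952). Like Cnn2, Rac2 and Lcp1 did not overlap between groups in either sex (3.17% of all genes in females, 1.92% in males). By liver channel Rac2 was 0.06 and 0.05 higher and Lcp1 0.11 and 0.25. The related calponin Cnn3 was 0.10 (SE 0.10) higher in females (adjusted p = 0.894), and 0.03 to 0.23 with 1 array left out, lowest without female control 40 and highest without female control 35.

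Of 8 ficolin and collectin genes, 7 were higher in females by ratio (median 0.23) and 4 by liver channel (median 0.02), and 1 was higher in males. None passed in limma, with 3 at an unadjusted p under 0.05 in females and 0 in males. Fcna, the ficolin of Kupffer cells, was 0.19 (SE 0.09) higher by ratio in females (adjusted p = 0.756) and -0.06 by liver channel, and Mbl1, a hepatocyte collectin, was 0.44 (SE 0.13) higher by ratio (adjusted p = 0.614) and 0.18 by liver channel. Of the chitinase-like and resistin-like genes, 4 of 7 could be tested and 2 were higher in females, none passing in limma (2 at an unadjusted p under 0.05). Chil1 was 0.46 (SE 0.12) higher in females (adjusted p = 0.489). Chil4 was 0.48 (SE 0.17) higher in females and 0.27 (SE 0.16) in males (adjusted p = 0.660 and 0.957). Without female control 25 Chil1 was 0.29 and Chil4 0.28 in females, and Chil4 in males was 0.16 without male control 41 or male UV-Titan 4. Retn, resistin, stood at -0.06 (SE 0.19) in females (adjusted p = 0.983).

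Every marker list had a positive median by ratio in females, exocrine pancreas (0.07) and skeletal muscle (0.07) included, where the median of all genes was 0.02. All 18 tested neutrophil genes were higher in females, with a median of 0.42 and 12 at an unadjusted p under 0.05, while 10 of 18 were higher in males, with a median of 0.04. By liver channel alone, 18 of 18 were higher in females (median 0.24) and 15 of 18 in males (median 0.10). Mmp8, the neutrophil collagenase, was 0.63 (SE 0.13) higher in females (adjusted p = 0.214) and 0.35 (SE 0.12) in males (adjusted p = 0.952). Lcn2 was 0.43 (SE 0.13), Fpr2 0.40 (SE 0.13), Mmp9 0.27 (SE 0.09) and Prtn3, a protease of primary granules, 0.29 (SE 0.14) higher in females, with adjusted p from 0.635 to 0.768. Without female control 25 Fpr2 and Prtn3 were each 0.19, without female control 35 Prtn3 was 0.47, and without female control 40 Mmp9 was 0.18. All 12 platelet genes were higher in both sexes (median 0.55 in females, 0.17 in males), led in females by Gp1bb, 0.58 (SE 0.09), and Treml1, 0.55 (SE 0.10), each with an adjusted p of 0.0847. The platelet list was drawn up with earlier results of these data known, and the choice of the 10 genes set platelet genes aside. Exposure values of the platelet genes, here and below, are therefore a description.

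Of 15 pan-leukocyte genes, 14 were higher in each sex (median 0.25 in females, 0.11 in males), among them Hcst, 0.38 (SE 0.09), and Ncf4, 0.32 (SE 0.08), each with an adjusted p of 0.429 in females. Of 16 macrophage genes 15 were higher in females by ratio (median 0.19) and 9 by liver channel (median 0.01), and of 15 lymphocyte genes 12 (median 0.08). None of these lists had a gene past limma's threshold, and the counts at an unadjusted p under 0.05 in females were 12 for platelets, 8 for pan-leukocyte genes, 5 for macrophages and 2 for lymphocytes. Of 10 endothelial genes, 9 were higher in females (median 0.24) and 9 by liver channel (median 0.15), and of 9 erythroid genes 8 were higher by ratio (median 0.26) and 4 by liver channel (median -0.02), with 6 and 5 at an unadjusted p under 0.05. All 12 hepatocyte genes were higher in females by ratio too, with a median of 0.51 equal to that of the 10 genes, but with a liver channel median of 0.04 where the 10 genes had 0.38. Averaged over the list, with each gene centred over the arrays, the platelet score ran from -0.48 to -0.28 in female controls and from 0.04 to 0.33 in UV-Titan females, and the neutrophil score from -0.48 to -0.06 and from -0.19 to 0.27. The part of these cell types, and of the reference channel, in the differences of the 10 genes was not tested.

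Across the 16 arrays the genes outside the set whose log2 ratio was most like that of Tnfsf14 were mainly platelet and megakaryocyte genes. The 8 highest Pearson r belonged to Treml1 (0.92), Clec1b (0.91), Itgb3 (0.91), Skap2 (0.91), the transcript AK076954 (0.90), Vwf (0.90), Itga2b (0.90) and Gp1bb (0.89). After the group means were subtracted, these were 0.53 (Vwf) to 0.82 (Skap2). In the liver channel alone, Skap2 had an r of 0.17 while the other 7 had 0.65 to 0.95. Among the 10, Ltb4r1 was most like Tnfsf14 (r = 0.87), followed by Slc2a3 (0.82) and Itgb2l (0.78), and Retnlg least (0.57). With group means subtracted, r was 0.54 for Ltb4r1, 0.51 for Itgam, 0.49 for Cd177 and 0.41 for Chil3. Slc2a3 then had 0.37, Fcnb 0.35, Cnn2 0.24, Itgb2l 0.03 and Retnlg -0.13. These values describe arrays that share slides, reference RNA and the exposure groups.

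Within groups the 10 genes did not vary as one block. After group means were subtracted, the 45 pairs had a median r of 0.24, with 9 above 0.5, and the closest pair was Cd177 with Fcnb (0.85), followed by Ltb4r1 with Fcnb (0.76). Ltb4r1, Fcnb and Cd177 had r = 0.93, 0.87 and 0.79 with the mean of the neutrophil genes, and 0.78, 0.75 and 0.78 with that of the platelet genes. Tnfsf14 had 0.73 with platelet genes, 0.71 with pan-leukocyte genes, 0.61 with lymphocyte genes and 0.40 with neutrophil genes. Cnn2 had -0.38 with the neutrophil genes, and -0.17 by liver channel. Part of this rested on slide 5. Without its 3 arrays Tnfsf14 had 0.68 with platelet, 0.59 with pan-leukocyte and -0.14 with neutrophil genes. Ltb4r1 and Fcnb had 0.72 and 0.67 with the neutrophil genes, while Cd177 had 0.07 and Cnn2 -0.14. The r of Ltb4r1 with hepatocyte genes was 0.85 by ratio and -0.71 by liver channel.

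**Figure D4:**
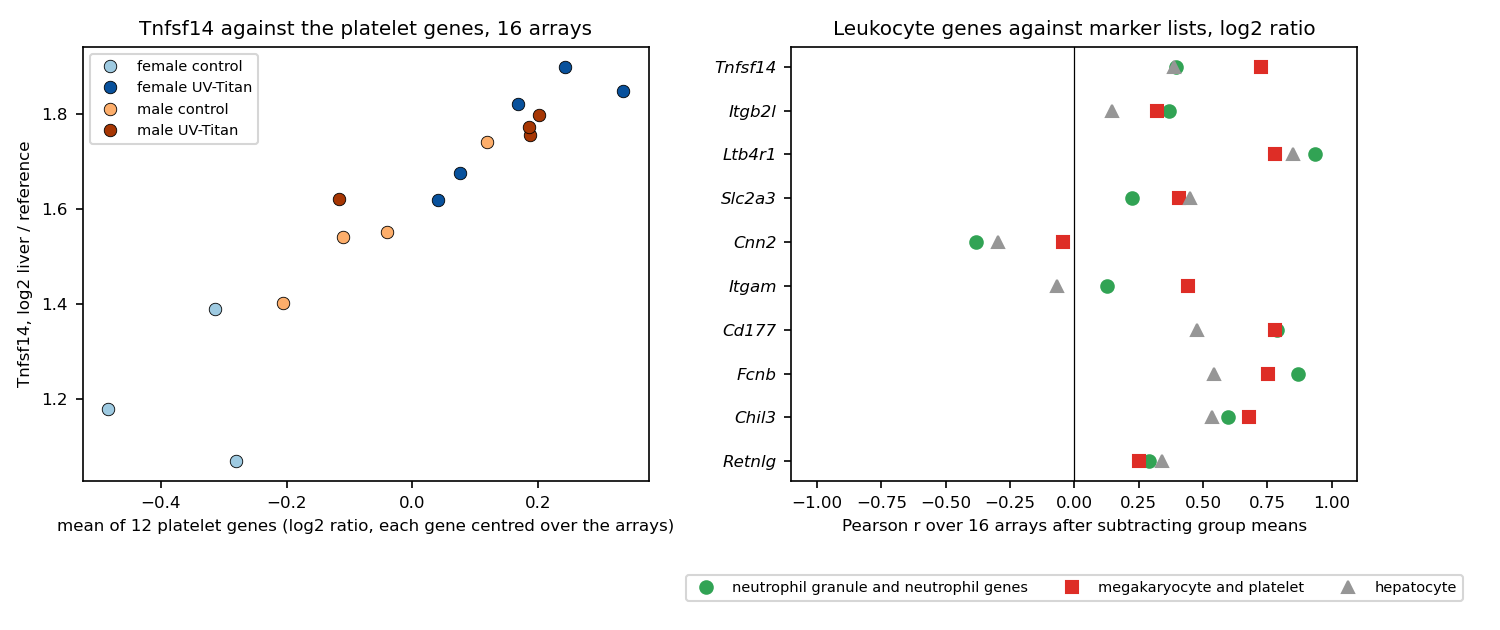
The left panel plots Tnfsf14 (log2 liver over reference) against the mean of 12 platelet genes on the 16 arrays, coloured by group. The right panel gives, for each of the 10 genes, Pearson's r over the 16 arrays after group means were subtracted, with neutrophil genes (circles), platelet genes (squares) and hepatocyte genes (triangles), where Ltb4r1 with neutrophil genes stands highest at 0.93 and Cnn2 with neutrophil genes lowest at -0.38.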

How the data were processed

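Spot intensity values of 16 two-colour Agilent mouse arrays, 1 for each liver (200 ng RNA) with a universal reference RNA, were deposited as scanned by Feature Extraction 9.5.3.1, per the labels. A series table of log2 values, which the authors deposited as well, had columns that followed red over green of the same arrays (r 0.983 to 0.993, slope 0.99 to 1.10), with column medians of -0.0450 to -0.0375. Its normalization and centring are not given in the sources used here. The labels and the labelling protocol name opposite dyes, and hepatocyte, Xist and Ddx3y signals placed liver in red.

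Mean signals (45018 spots, 41174 probes) were corrected with normexp (offset 50) and loess within array in limma 3.58.1 under R 4.3.3, with control spots at weight 0. Testing took genes with a probe whose liver signal was well above background on 3 or more arrays, read from the brightest such probe. Accessions gave symbols for 12355 of 19361 genes through RefSeq names of GRCm38.p6. One limma model held a mean for each of the 4 groups (12 residual degrees of freedom), with two-sided tests and Benjamini-Hochberg adjustment over all genes at 0.05. It was tested on simulated data. The number of arrays limits the precision.

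The 10 genes and all gene lists were chosen with earlier results of these data known. The text names the 10 genes, genes of each list with the smallest p in females (at most 4 a list), direct partners and the 8 genes most like Tnfsf14, and gives a selection of these. Alternatives covered background correction, scaling, channel, the deposited table, filters, probes, slide, scan day, array weights and left-out arrays. A pair of array sets and the slide 5 arrays were added after seeing the data.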

Additional observations from a re-analysis of the deposited data

How the results depend on the processing

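No paired analysis by replicate number was possible because the groups share none, so slide and scan day served as blocks. The female difference of each of the 10 genes kept its sign under all 30 alternatives, and the male difference turned in 12 of 300 values. In each sex 119 of the 300 values could not move, since the alternative left out only arrays of the other sex, changed only the filter or met a gene with 1 probe. The other 181 could. The male values that turned were -0.19 for Itgb2l, -0.09 for Fcnb and -0.37 for Retnlg by processed signals, -0.03 for Ltb4r1 under median centring, and Cd177 in 8 alternatives (-0.05 to 0.16 over all). The median over the 10 genes was 0.43 to 0.62 in females and 0.13 to 0.25 in males with 1 array left out. Median centring shifted the median of all genes to 0.27 in females (88.5% of genes higher) and -0.09 in males (22.4%), and gave medians of 0.73 and 0.073 for the 10 genes, which is 0.46 and 0.16 above all genes. The liver channel centred on its median shifted all genes by 0.14 in females.

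In females 13 of the 300 values moved by over 1.5 times. They were Itgb2l 1.05, Cd177 0.79 and Itgam 0.13 by processed signals, Ltb4r1 0.84, Slc2a3 0.73, Chil3 1.11 and Cnn2 0.57 under median centring, Cnn2 0.44 by median-centred liver channel, Chil3 0.40 by liver channel, Cnn2 0.10 and Itgam 0.21 in the deposited table, Itgam 0.17 without female controls 25 and 35, and Cd177 0.31 without female control 25. In males 54 did, from -0.37 (Retnlg) to 0.74 (Itgam), both by processed signals. The cause was not tested.

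In females the number of genes limma called was 1 with slide as a block (Ltb4r1), 1 with scan day as a block (Ltb4r1), 6 with array weights (Gp1bb, Gp9, Treml1, Itgb2l and 2 transcripts), and 0 to 1 with 1 array left out (Gp1bb without female UV-Titan 21, AK076954 without male control 43). In males it was 1 by processed signals (NAP026179-1). For the sexes it was 3 rather than 9 where probes had to be well above background on all arrays, which left 16219 genes, and 8 to 9 with 1 array left out. None of the 10 genes passed for the sexes under any of the 30 alternatives, the smallest adjusted p being 0.319. The female exposure contrast chose Ltb4r1 and Itgb2l, so nothing is read from their calls in females.

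Signs that turned were these, and their cause was not tested. For male minus female, Itgb2l was -0.19 and Cd177 -0.042 by processed signals, and Cnn2 was -0.017 by liver channel, -0.0023 with array weights, -0.0075 without female controls 25 and 35, and -0.012 to 0.030 with 1 array left out. In females Tnfrsf14 was -0.030, Fcna -0.064, Retn 0.028, Slc2a2 -0.15 and Lta4h 0.0035 by liver channel. Ltbr was -0.0011 by processed signals, -0.022 in the deposited table, -0.011 with array weights, -0.073 without female controls 25 and 35, and -0.064 to 0.078 with 1 array left out. Lta4h was 0.30 under median centring, 0.24 by median-centred liver channel, 0.0022 with array weights, and -0.099 to 0.0100 with 1 array left out. Slc2a1 was 0.34 under median centring, 0.070 by median-centred liver channel, 0.054 with slide and 0.041 with scan day as a block, 0.031 with array weights, 0.13 without female controls 25 and 35, and -0.11 to 0.062 with 1 array left out. Slc2a2 was -0.028 with slide and -0.0096 with scan day as a block, and -0.060 to 0.066 with 1 array left out. In males Rac2 was -0.0080 under median centring and -0.0061 by median-centred liver channel, and Ncf4 was -0.020 by liver channel and -0.076 by median-centred liver channel.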
